A study of Mus musculus with 8 samples.

Results

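The 4 libraries compared here, of 8 in the series, held RNA of regulatory T (Treg) cells, chosen by their labels as the reporter-positive libraries of both kinds of mice. Every library came from CD4+ T cells of mouse spleen, sorted on a green fluorescent protein (GFP) reporter of Foxp3, the defining transcription factor of Treg cells. The 2 monoclonal libraries came from NOD.TCRab.FoxP3GFP.Rag-/- mice, which the labels mark NT and whose T cells carry 1 receptor. The 2 polyclonal libraries came from NOD.FoxP3GFP mice, marked WT, with a diverse receptor repertoire. Both kinds of mice share the NOD background, a strain that develops autoimmune diabetes, and the Foxp3 reporter. The other 4 libraries, 2 of reporter-negative (non-Treg) CD4+ cells from each kind of mouse, entered the model and serve as a reference here. Strain construction, loss of Rag and receptor change together, so their parts in any difference cannot be told apart. Age and sex are not given in the sources used here. Whether replicates A and B were different animals is not said, and p-values here reflect only how far these libraries spread, which may be technical.

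Treg cells restrain other immune cells and keep tolerance to the body's own tissues. Most mature in the thymus after their receptor has met a self antigen, leave as resting cells that recirculate through lymphoid organs, and, once stimulated, can become effector Treg cells that lose lymph node homing receptors and acquire receptors for inflamed or peripheral tissue. Rag recombinase assembles receptor genes, and mice without it make T and B cells only from receptor transgenes or genes assembled beforehand. A monoclonal population therefore meets a single set of antigens, whereas a polyclonal one holds many specificities.

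The libraries held 14076330 to 19722321 assigned reads, and values are counts per 1000000 assigned reads (CPM) in the order replicate A, replicate B. The sort label held: Foxp3 measured 2709 and 2667 CPM in monoclonal and 2349 and 2281 CPM in polyclonal Treg libraries, against 405 and 319 and 81.9 and 84.2 CPM in the non-Treg libraries of the same mice. The monoclonal non-Treg libraries thus held more Foxp3 RNA than the polyclonal ones. Rn45s, the ribosomal RNA precursor, measured 3404 and 2846 CPM in monoclonal and 2355 and 2597 CPM in polyclonal Treg libraries. Transcripts of other cell types were present and differed between the groups. The 31 dendritic cell markers summed to 8134 and 6171 CPM in the monoclonal Treg libraries. The same sum was 311 and 380.0 CPM for polyclonal Treg cells and reached 23420.0 and 26136 CPM for monoclonal non-Treg cells. The 25 macrophage and monocyte markers summed to 992 and 731 CPM in monoclonal against 297 and 377 in polyclonal Treg libraries, and the 20 NK cell and innate lymphoid markers to 398 and 317 against 85.3 and 86.1. The 17 neutrophil markers stood apart in 1 library, at 1678 CPM in monoclonal Treg A and 310 in B, against 67.6 and 39.9 in polyclonal Treg. B cell markers summed to 84.0 and 55.2 against 35.2 and 54.1 CPM, and in non-Treg libraries to 301 and 347 against 51.8 and 72.04 CPM. Of 10 B cell markers tested, 3 were called higher and 1 lower in monoclonal Treg. The B cell factors Pax5 and Ebf1 were at 0 reads in all 4 Treg libraries. The summed markers of CD8 T cells, plasma cells, erythroid cells and stroma appear in the plot of marker lists. In bulk RNA, fewer cells of a type and less RNA per cell cannot be told apart, and the part of these other cells in the results below was not tested.

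**Figure D1:**
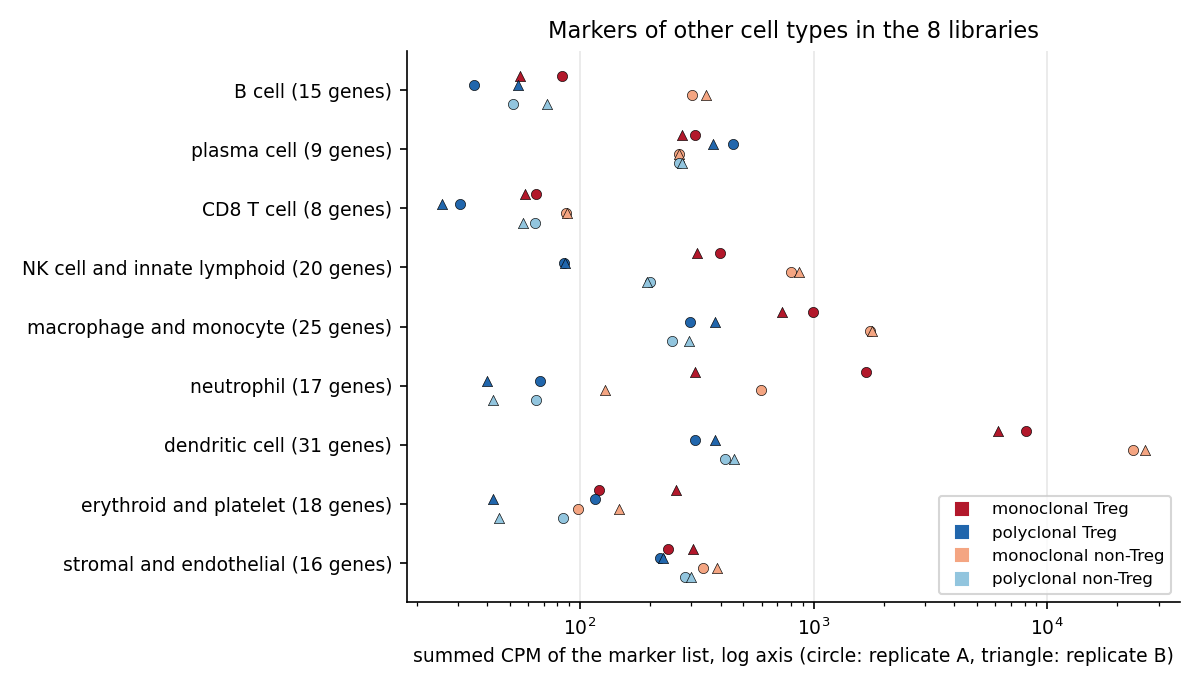
Summed CPM of 9 marker lists (x axis, logarithmic) in each of the 8 libraries, coloured by group, with circles for replicate A and triangles for replicate B. The dendritic cell sum of monoclonal Treg libraries (8134 and 6171 CPM) lies above that of polyclonal Treg libraries (311 and 380.0) and below that of monoclonal non-Treg libraries (23420.0 and 26136).

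Polyclonal Treg replicate A also stood apart by transcript length. Among 8101 genes with a mean log2(CPM + 1) of at least 4, divided by length into 5 groups of nearly equal size, the median difference B minus A of the polyclonal Treg libraries ran from 0.37 in the shortest group to -0.22 in the longest on the log2 scale. The same median stayed between -0.006 and 0.016 in the monoclonal Treg libraries. The median difference of monoclonal minus polyclonal Treg ran from 0.14 to -0.23 with all libraries and from -0.05 to -0.12 without polyclonal Treg A. Of the shortest group, 13.3% of genes were called higher and 4.13% lower in monoclonal Treg, and of the longest 6.98% and 27.5%.

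**Figure D2:**
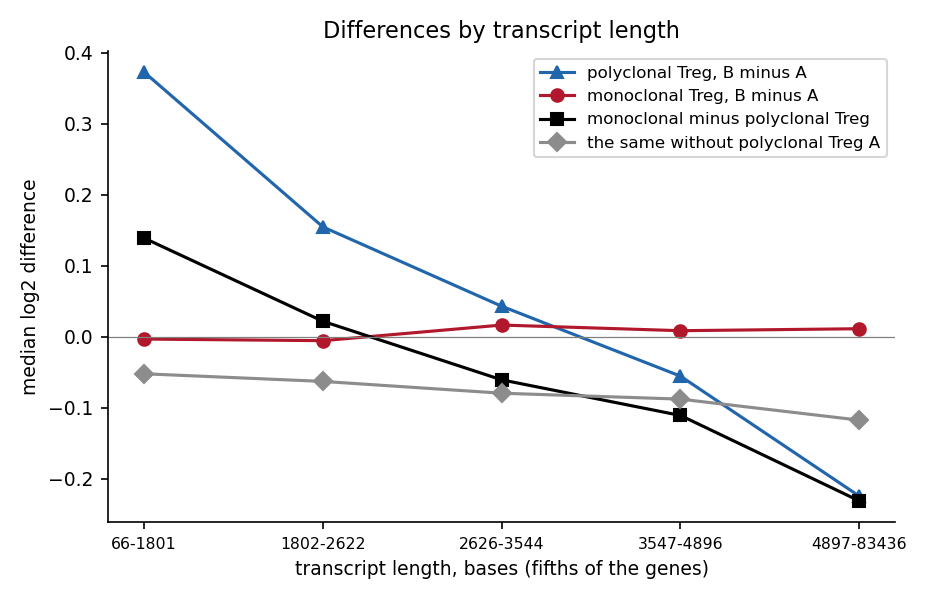
Median log2 difference (y axis) of genes in 5 groups by transcript length in bases (x axis), for replicate B minus A of each Treg group and for monoclonal minus polyclonal Treg with and without polyclonal Treg A. The polyclonal replicates differ by 0.37 in the shortest and -0.22 in the longest group, while the monoclonal replicates stay between -0.006 and 0.016.

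Monoclonal and polyclonal Treg cells differed at 3116 of 12881 genes tested (24.2%) with limma and Benjamini-Hochberg adjustment, 1553 higher (12.1%) and 1563 lower (12.1%) in monoclonal Treg, and these shares are the background for every list below. At least 2-fold changes numbered 1028 higher and 687 lower, and the median log2 fold change over all genes tested was -0.03. Of the 1553 genes higher in monoclonal Treg, 774 were also above both monoclonal non-Treg libraries in both Treg libraries, and 585 had both non-Treg libraries above both Treg libraries. Of the 1563 lower genes, 723 lay in both polyclonal Treg libraries above both polyclonal non-Treg libraries. Shares of all genes tested in these positions are not given, so these counts are no result about the called genes. In non-Treg cells the same contrast called 1558 genes higher (12.1%) and 947 lower (7.35%). Over all genes tested, both monoclonal Treg libraries lay above both polyclonal ones for 25.4% and below for 28.8%. Of the 3116 called genes, 3115 had groups that did not overlap, and the naming of most genes required it. Where groups are said below not to overlap, this therefore adds nothing to the call. Without the genes also called higher in non-Treg cells of monoclonal mice, a choice made after seeing the markers of other cells, 2074 of 11323 genes were called, 688 higher and 1386 lower. That choice removes genes by their rise in non-Treg cells, so fewer rises, here and in the lists below, were largely set in advance. Without polyclonal Treg A, 1241 were higher and 1175 lower.

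Core Treg identity genes split. Foxp3, Ctla4, the inhibitory receptor by which Treg cells strip costimulatory ligands from other cells, and Ikzf2, the Helios transcription factor, were not called, while Gpr83, Lrrc32, Lrig1 and Folr4 were among the genes that fell. Of 24 identity genes tested, 4 rose and 9 fell, with a median log2 fold change of -0.28. Gpr83, an orphan receptor of Treg cells, measured 22.3 and 8.64 CPM in monoclonal and 214 and 228 CPM in polyclonal Treg libraries. The monoclonal Treg level thus lay at that of non-Treg cells, 25.3 and 15.5 CPM in monoclonal and 14.8 and 13.6 in polyclonal, and the log2 fold change was -3.89 ± 0.33 (SE, limma adjusted p = 1.2e-06). Lrrc32, which encodes GARP, the anchor of latent TGF-beta on the surface of Treg cells, fell from 235 and 234 CPM in polyclonal to 17.02 and 15.9 CPM in monoclonal Treg libraries, and its log2 fold change was -3.75 ± 0.49. Lrig1, a membrane regulator of growth factor receptors, measured 169 and 174 against 16.7 and 8.02 CPM and Folr4, a folate receptor family member, 448 and 752 against 147 and 124 CPM. In all 4 genes both polyclonal libraries stood above both monoclonal ones. The identity genes Ikzf4, Tnfrsf9, Plagl1 and Il2rb, the IL-2 receptor beta chain, also fell. Il2ra, the alpha chain of the IL-2 receptor (CD25), measured 566 and 461 against 896 and 788 CPM, a log2 fold change of -0.72 ± 0.21 whose call was lost without either polyclonal Treg library, without monoclonal Treg B, under CD3 scaling (each library scaled to the mean log2 level of its 4 CD3 genes), with the length trend removed, without a filter on low values and without the mean-variance trend. The CD3 factors were 1.08 and 1.10 in monoclonal and 0.877 and 1.27 in polyclonal Treg libraries, so the polyclonal pair was scaled in opposite directions. The median log2 fold change over all genes went only from -0.03 to -0.07, and that of Il2ra was -0.76. A call lost under CD3 scaling, here and below, can thus come from a wider replicate spread without a smaller difference.

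The 4 identity genes that rose were Tnfrsf18, Tnfrsf4, Capg and Itgae. Tnfrsf18, which encodes the costimulatory receptor GITR, measured 373 and 408 CPM in monoclonal and 126 and 226 CPM in polyclonal Treg libraries, and the groups did not overlap. Its log2 fold change was 1.20 ± 0.22 (adjusted p = 0.0013). Tnfrsf4 (OX40) measured 452 and 488 against 201 and 347 CPM, Itgae, the CD103 integrin chain that binds epithelial E-cadherin, 228 and 156 against 83.3 and 130.4 CPM, and Capg, an actin-capping protein, 149 and 142 against 53.8 and 103 CPM. In each of these the monoclonal libraries were higher than both polyclonal ones, but polyclonal Treg A was the lower of its pair, and without it only Tnfrsf18 was called higher. Without either monoclonal Treg library or without a filter on low values 2 of the list were called higher, and 1 without the mean-variance trend or without genes called higher in monoclonal non-Treg cells. Ctla4 measured 676 and 760.1 against 632 and 591 CPM (0.23 ± 0.13, adjusted p = 0.23) and Ikzf2 1224 and 1409 against 1723 and 1314 CPM (-0.20 ± 0.13, adjusted p = 0.32). Without polyclonal Treg B Ikzf2 was called lower, at -0.39 on the log2 scale (limma adjusted p = 0.0144). Foxp3 differed by 0.22 ± 0.12 on the log2 scale (adjusted p = 0.23), and was called only with the length trend removed.

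Genes of effector and tissue-resident Treg cells were higher in monoclonal Treg cells, several by more than 3 on the log2 scale. Of 24 tested, 12 rose and 4 fell, with a median log2 fold change of 0.97. Il1rl1, which encodes ST2, the receptor for the alarmin IL-33, measured 1377 and 1334 CPM in monoclonal and 53.7 and 85.3 CPM in polyclonal Treg libraries, a log2 fold change of 4.30 ± 0.22 (adjusted p = 1.5e-08). The gene lies at chromosome 1, positions 40496474 to 40522259 of mm9. Klrg1, a lectin-like receptor of terminally differentiated Treg cells, measured 552 and 549.8 against 26.6 and 37.6 CPM, and Pparg, the nuclear receptor of adipose tissue Treg cells, 73.1 and 61.05 against 2.13 and 0.862 CPM. Both monoclonal Treg libraries lay far above both polyclonal ones in each. These 3 genes were also higher in the non-Treg cells of monoclonal mice: Il1rl1 measured 233 and 148 against 14.4 and 18.4 CPM, Klrg1 87.2 and 45.02 against 2.78 and 1.74 CPM and Pparg 12.8 and 12.2 against 0.633 and 0.323 CPM. All 3 were lower in the monoclonal non-Treg than in the monoclonal Treg libraries. Gata3, the transcription factor of type 2 responses that also stabilises tissue Treg cells, measured 464 and 481 against 149 and 168 CPM, and Prdm1 (Blimp-1), which marks effector Treg cells, 105 and 104 against 42.3 and 49.5 CPM. Gata3 rose by 1.57 ± 0.13 and Prdm1 by 1.17 ± 0.18 on the log2 scale.

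Il9r, Rora, Gzmb, Areg, Fgl2, Ccr3 and Havcr2 made up the other 7 genes that rose. Il9r, the IL-9 receptor, measured 230.5 and 229.8 CPM in monoclonal and 20.7 and 19.2 CPM in polyclonal Treg libraries, with 40.98 and 36.4 and 34.1 and 43.4 CPM in the non-Treg libraries of the same mice. The difference was thus seen in Treg cells, and its change relative to non-Treg cells was 3.46 ± 0.25 on the log2 scale (adjusted p = 4.6e-06). Rora, a nuclear receptor of tissue Treg cells and innate lymphoid cells, measured 457 and 513 against 174 and 108 CPM, and Gzmb, the cytotoxic protease granzyme B, 43.8 and 45.6 against 3.34 and 9.84 CPM. Areg, the tissue repair factor amphiregulin, was low throughout, at 6.83 and 4.07 against 0 and 0.761 CPM. Of the 12 genes that rose, 11 lay in both monoclonal Treg libraries above both monoclonal non-Treg libraries, as did 774 of all 1553 genes that rose. The share over all genes tested is not given. For Fgl2, a secreted suppressive protein, the margin was small, at 303 and 214 CPM in monoclonal Treg and 145 and 214 CPM in monoclonal non-Treg libraries. Havcr2 (TIM-3), which dendritic cells and macrophages also express, was the exception, at 61.9 and 41.3 and 179.6 and 237 CPM, and the summed dendritic cell markers were higher in the non-Treg libraries as well, and their part was not tested. Without genes called higher in monoclonal non-Treg cells, 6 of the 14 genes left in the list were called higher.

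The effector genes Penk, Ccr8, Dusp4 and Irf4 were lower in monoclonal Treg cells. Penk, which encodes the enkephalin precursor, measured 2.43 and 9.77 CPM in monoclonal and 51.4 and 98.2 CPM in polyclonal Treg libraries, and Ccr8, a chemokine receptor of skin and tumour Treg cells, 5.45 and 2.82 against 21.5 and 33.01 CPM. Irf4, a factor induced by receptor signals, measured 72.99 and 84.7 against 133 and 111 CPM, and Dusp4, a phosphatase that damps MAP kinase signals, 46.5 and 70.98 against 92.1 and 99.7 CPM. The groups did not overlap in any of the 4, as in nearly all called genes. The calls of Irf4 and Dusp4 were lost without polyclonal Treg A, without monoclonal Treg A, under CD3 scaling and without the mean-variance trend. That of Dusp4 was also lost without polyclonal Treg B and without a filter on low values. Il10, Batf, Maf, Ahr and Cxcr3 were among the 8 not called, although Cxcr3 was called higher without polyclonal Treg B (0.63, limma adjusted p = 0.0275). Il10, the suppressive cytokine, was low and uneven, at 2.17 and 8.41 against 7.74 and 3.90 CPM.

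**Figure D3:**
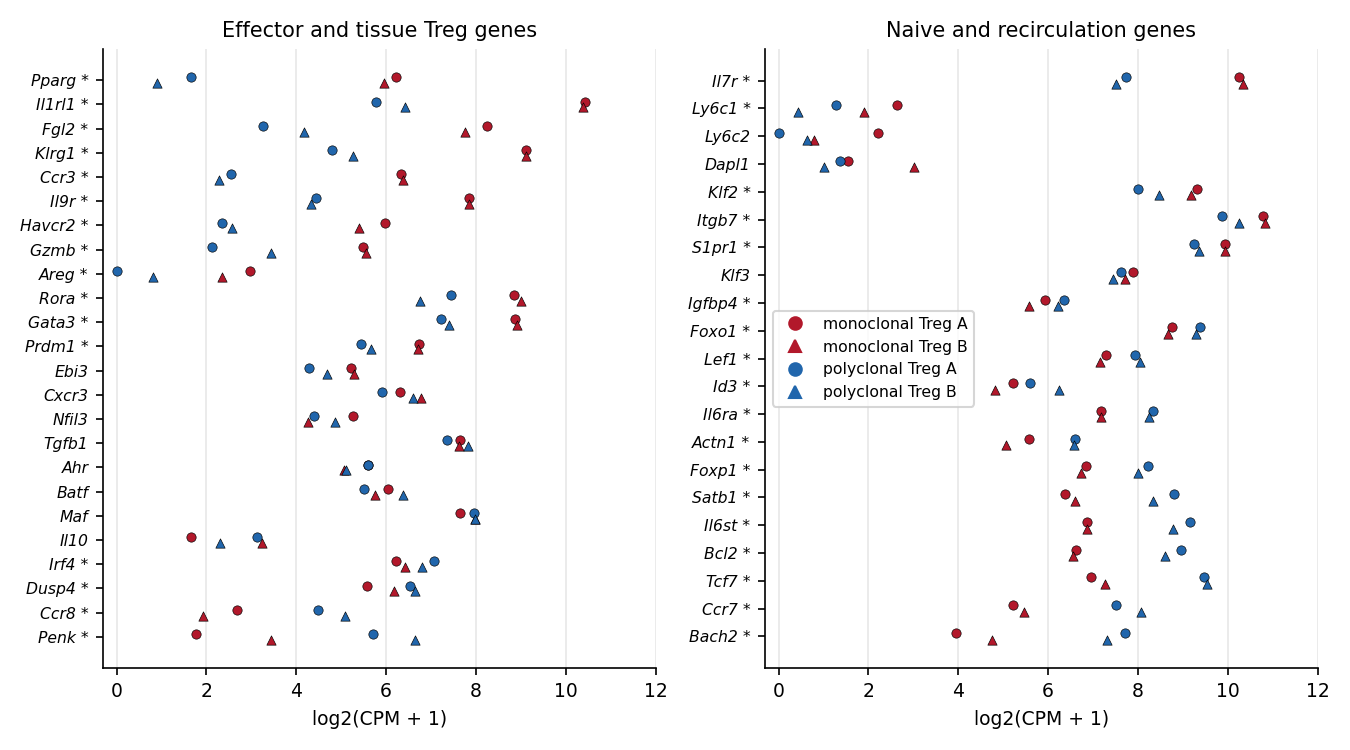
Levels as log2(CPM + 1) (x axis) of the effector and tissue Treg genes (left) and the naive and recirculation genes but 1 (right) in the 2 monoclonal (red) and 2 polyclonal (blue) Treg libraries, ordered by fold change, with an asterisk on genes called by limma. Red points lie to the right for Pparg, Il1rl1 and Klrg1 and to the left for Bach2, Ccr7 and Tcf7, while Il7r stands at the top of the right panel.

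Naive and recirculation genes moved mostly the other way. Of 22 tested, 14 fell and 5 rose in monoclonal Treg cells, with a median log2 fold change of -0.83. Among the transcription factors of resting T cells, Tcf7 (TCF-1) measured 123 and 154 CPM in monoclonal and 709 and 747 CPM in polyclonal Treg libraries, with a log2 fold change of -2.40 ± 0.13 (adjusted p = 1.9e-08). Bach2, a repressor of effector programs, measured 14.5 and 25.9 against 209.5 and 157 CPM, and Satb1, a chromatin organiser of T cells, 82.4 and 95.8 against 445 and 324 CPM. Every monoclonal value was below every polyclonal value, and the polyclonal Treg level of Bach2 lay near that of non-Treg cells (190.3 and 193 CPM in polyclonal). Lef1, Foxp1, Foxo1, Id3 and Actn1 fell as well, by between 0.61 and 1.33 on the log2 scale, and the call of Id3 was lost without monoclonal Treg B or polyclonal Treg B. Bcl2, which protects resting lymphocytes from apoptosis, measured 97.6 and 93.2 against 497 and 385 CPM.

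A receptor for lymph node entry fell while a receptor for exit from lymphoid organs rose. Ccr7, the chemokine receptor that guides T cells into lymph nodes, measured 36.5 and 42.9 CPM in monoclonal and 182 and 265 CPM in polyclonal Treg libraries, a log2 fold change of -2.44 ± 0.17 (adjusted p = 1.4e-07). Non-Treg cells of both kinds of mice were much closer, at 409 and 330.5 against 400.3 and 419 CPM, and the difference between Treg and non-Treg was -2.29 ± 0.24 (adjusted p = 6.7e-05). S1pr1, the receptor for sphingosine 1-phosphate by which T cells leave lymphoid organs, measured 983 and 978 against 602 and 656 CPM, and Klf2, a transcription factor that activates S1pr1, 631 and 579.6 against 254 and 354 CPM. Both rose, as did the gut homing integrin chain Itgb7 at 1769 and 1811 against 938 and 1219.7 CPM, although the calls of S1pr1 and Itgb7 were lost under CD3 scaling. With that scaling 2 genes of this list were called higher in place of 5.

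Il7r, the alpha chain of the IL-7 receptor, is usually low on Treg cells and was the clearest exception in the list. It measured 1212 and 1293 CPM in monoclonal and 212 and 180.4 CPM in polyclonal Treg libraries, and 511 and 464 CPM in monoclonal and 792 and 903 CPM in polyclonal non-Treg libraries. In polyclonal mice Treg cells were thus lower than non-Treg cells, and in monoclonal mice they were higher, with no overlap in either. The log2 fold change between the Treg groups was 2.67 ± 0.12 (adjusted p = 4.3e-09), and it differed from that in non-Treg cells by 3.47 ± 0.17 (adjusted p = 1.4e-07). The gene lies at chromosome 15, positions 9435914 to 9459631 of mm9.

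Of 17 chemokine receptors tested, 6 rose and 6 fell. Ccr2, the receptor for monocyte chemoattractant proteins, measured 769 and 673 CPM in monoclonal and 47.5 and 53.04 CPM in polyclonal Treg libraries, a log2 fold change of 3.82 ± 0.15 (adjusted p = 9.9e-10). It measured 232 and 169 CPM in monoclonal non-Treg libraries. Monocytes also express Ccr2, their summed markers with those of macrophages were 992 and 731 CPM in monoclonal Treg and 1746 and 1787 CPM in monoclonal non-Treg libraries, and their part in the Ccr2 values was not tested. Ccr3, the eotaxin receptor, measured 80.02 and 81.9 against 4.83 and 3.85 CPM, and Cxcr4, the receptor for the bone marrow and stromal chemokine CXCL12, 335 and 542 against 83.05 and 122 CPM. Among those that fell beside Ccr7 and Ccr8, Cxcr5, which leads T cells into B cell follicles, measured 10.1 and 7.17 against 76.4 and 109 CPM and Gpr15, a colon homing receptor, 3.22 and 1.41 against 10.5 and 12.8 CPM. Both monoclonal Treg values of Cxcr5 lay below all 6 other libraries, and the monoclonal non-Treg libraries were close at 15.5 and 12.8 CPM. Cx3cr1 and Ccr4 also rose, and Ccr6 and Gpr183 fell, Ccr6 not without monoclonal Treg B. Without genes called higher in monoclonal non-Treg cells, 3 of the 13 left in the list were called higher.

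Memory and migration genes rose together. Of 24 tested, 16 rose and 2 fell, with a median log2 fold change of 1.11, or 0.82 without polyclonal Treg A. Lgals3, the carbohydrate-binding galectin-3, measured 78.2 and 94.1 CPM in monoclonal and 3.91 and 8.32 CPM in polyclonal Treg libraries, Anxa1, an annexin that limits inflammation, 88.8 and 44.3 against 4.97 and 4.92 CPM, and S100a4, a calcium-binding protein of motile cells, 573 and 492 against 34.2 and 95.1 CPM. S100a6, of the same family, measured 391 and 323 against 41.2 and 70.9 CPM. Polyclonal Treg A was lower than B for Lgals3, S100a4 and S100a6, whose transcripts are short, and all 4 kept their call without it. Vim, Crip1, Lgals1, Itga4 and Il18rap, chosen after their values were seen, were other members that rose. Il18rap, the accessory chain of the IL-18 receptor, measured 195 and 242 against 63.3 and 63.5 CPM while its partner Il18r1 fell, at 262 and 307 against 496 and 410.0 CPM. Itgal, the LFA-1 integrin chain, fell too, at 611 and 653 against 1085 and 1249 CPM. Macrophages express several of these genes, and their summed markers were 992 and 731 CPM in monoclonal against 297 and 377 in polyclonal Treg libraries. Without genes called higher in monoclonal non-Treg cells, 10 of the 19 left in the list were called higher.

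Early response genes, induced within minutes to hours of receptor stimulation, divided into members that rose and members that fell. Of 25 tested, 14 rose and 7 fell, with a median log2 fold change of 1.16. The upstream sequences of 3 chosen members with large changes are shown because members of the same list moved in opposite directions: Atf3 and Fosb rose and Nr4a3 fell. All 3 hold the motif marked below. The window of Ier3, which rose more than Fosb, held no match and is not shown. They are the 250 bases before the RefSeq start site on GRCm38.p6, 5′ to 3′ on the strand of the gene, with the letters TGACG (the core of a cAMP response element, both strands) in capitals. The windows are chr1:191183334-191183583 for Atf3 and chr7:19310046-19310295 for Fosb, both on the minus strand, and chr4:48045055-48045304 on the plus strand for Nr4a3.
Atf3: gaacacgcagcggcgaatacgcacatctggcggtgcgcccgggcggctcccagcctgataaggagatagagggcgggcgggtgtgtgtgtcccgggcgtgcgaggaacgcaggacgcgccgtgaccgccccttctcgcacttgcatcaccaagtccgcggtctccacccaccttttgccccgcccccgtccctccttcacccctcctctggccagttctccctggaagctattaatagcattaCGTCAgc
Fosb: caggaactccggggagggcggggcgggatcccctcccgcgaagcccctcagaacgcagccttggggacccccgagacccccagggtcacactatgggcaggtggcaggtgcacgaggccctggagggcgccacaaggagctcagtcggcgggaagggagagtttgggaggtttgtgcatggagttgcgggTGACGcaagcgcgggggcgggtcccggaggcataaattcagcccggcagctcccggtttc
Nr4a3: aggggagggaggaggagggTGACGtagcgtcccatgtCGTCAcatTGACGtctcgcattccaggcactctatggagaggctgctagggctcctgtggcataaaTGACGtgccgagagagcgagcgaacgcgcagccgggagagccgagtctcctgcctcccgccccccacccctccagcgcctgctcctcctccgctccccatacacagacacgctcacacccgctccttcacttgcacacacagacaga
At least 1 match lay in 17.8% of the 32851 promoter windows of the same length in the table, and 4 or more in 0.137%. Nr4a3 held 4 matches, as did the windows of its relatives Nr4a1 and Nr4a2, which were not called, and Atf3 and Fosb held 1 each. Among list members with a window, 6 of 11 that rose, 2 of 5 that fell and 2 of 4 that were not called held a match. The full palindrome TGACGTCA, which contains the shorter motif, was found in Dusp1 alone among these members and in 1.55% of all windows, and the AP-1 motif TGANTCA in none of them and in 6.75% of all windows. A match in this window is a description of the letters and says nothing on binding in these cells.

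AP-1 genes and other fast genes made up those that rose. Atf3, a stress-induced partner of AP-1, measured 33.2 and 44.2 CPM in monoclonal and 0.213 and 0.152 CPM in polyclonal Treg libraries, and Ier3, an early response survival gene, 62.5 and 45.5 against 1.07 and 0.355 CPM. Both were close to absent from the polyclonal Treg libraries. Fosb measured 208 and 232 against 19.3 and 12.9 CPM and Fos, the AP-1 subunit c-Fos, 264 and 259 against 22.7 and 31.3 CPM, a log2 fold change of 3.24 ± 0.17 (adjusted p = 1.5e-08). For Atf3, Fosb and Fos the monoclonal non-Treg libraries were higher still, at 141 and 257, 923 and 1167 and 701 and 716 CPM, as were the summed dendritic cell markers. Of the 14 genes that rose, 13 were also called higher in monoclonal non-Treg cells. The exception was Cd69, an early activation marker, at 126 and 168 against 75.6 and 79.4 CPM in Treg and 62.4 and 47.8 against 80.4 and 83.8 CPM in non-Treg libraries. The other members that rose were Jun, Jund, Fosl2, Egr1, Ier2, Ier5, Dusp1, Dusp5 and Junb. Junb, another AP-1 subunit, chosen after its values were seen, measured 1614 and 1381 against 229.5 and 410.0 CPM, and both monoclonal Treg values lay above the monoclonal non-Treg ones (917 and 719.9 CPM).

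The members that fell were Nr4a3, Spry1, Egr3, Egr2, Myc, Nab2 and Dusp6. Nr4a3, an orphan nuclear receptor that reports receptor signals, measured 0.197 and 0.0565 CPM in monoclonal and 20.4 and 27.8 CPM in polyclonal Treg libraries, and 5.10 and 5.61 against 9.81 and 9.49 CPM in the non-Treg libraries. Both monoclonal Treg values were at or under the level of 3 reads, about 0.169 to 0.197 CPM. Egr2 and Egr3, transcription factors induced through calcineurin that restrain T cell activation, measured 15.4 and 12.6 against 50.8 and 69.1 CPM and 12.02 and 16.7 against 79.8 and 74.3 CPM. Egr3 changed by -2.36 ± 0.20 on the log2 scale (adjusted p = 9.5e-07). In non-Treg cells Egr2 went the other way, at 63.7 and 62.7 CPM in monoclonal and 28.4 and 34.8 CPM in polyclonal libraries. Spry1, an inhibitor of receptor kinase signals, measured 8.87 and 1.52 against 62.9 and 63.7 CPM, and the monoclonal replicates lay far apart. Nr4a1 (Nur77), a common reporter of receptor signal strength, was not called at 315 and 257 against 197 and 215 CPM (log2 fold change 0.46 ± 0.17, adjusted p = 0.057). It was called higher with DESeq2, with the length trend removed and with a replicate block (0.46, limma adjusted p = 0.0468), and non-Treg cells differed more, at 718 and 678 against 90.1 and 60.8 CPM. The call of Dusp6 was lost without monoclonal Treg A or polyclonal Treg B.

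**Figure D4:**
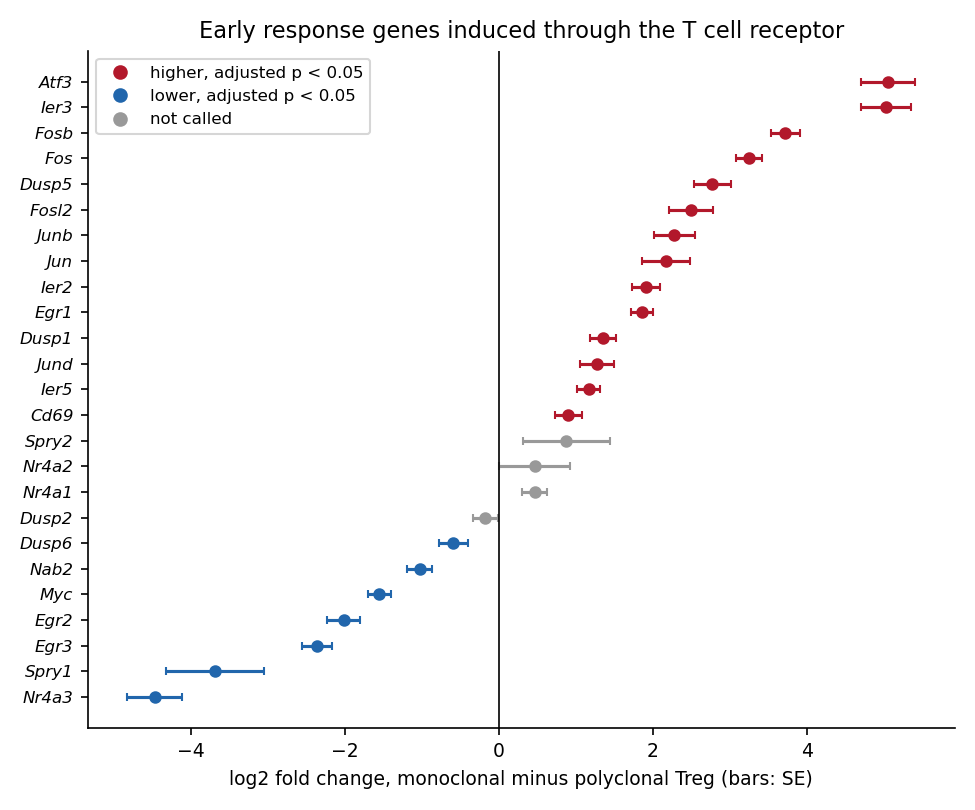
Log2 fold change on the log2(CPM + 1) scale, monoclonal minus polyclonal Treg (x axis), with its SE as bars, for the 25 early response genes tested. Atf3 (5.05) and Ier3 (5.02) lie at the top and Spry1 and Nr4a3 at the bottom, and 4 genes were not called.

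Kinases and coreceptors of T cell receptor signalling were lower in monoclonal Treg cells, while the CD3 chains were not called. Of 24 genes tested, none rose and 12 fell, with a median log2 fold change of -0.32, and without polyclonal Treg A 1 rose and 14 fell, while without polyclonal Treg B 2 rose. Cd3e, a chain of the CD3 complex, measured 716 and 768 CPM in monoclonal and 647 and 805 CPM in polyclonal Treg libraries (log2 fold change 0.04 ± 0.13, adjusted p = 0.86), and Cd3d, Cd3g and Cd247 were not called. Single libraries moved these calls: without polyclonal Treg A Cd3d was called lower (-0.51, limma adjusted p = 0.0261), and without B Cd3g was called higher (0.62, adjusted p = 0.00082). Zap70, the kinase recruited to the phosphorylated receptor, measured 181 and 184 against 345 and 379 CPM, and Fyn, a kinase that acts at the same step, 362 and 375 against 710.1 and 719.8 CPM. Cd28, the main costimulatory receptor, measured 251 and 265 against 559 and 439.8 CPM and Sh2d1a, the SAP adaptor, 32.1 and 44.2 against 67.7 and 81.8 CPM. The groups did not overlap in these 4 genes, which fell by 0.94 to 0.98 on the log2 scale. Non-Treg cells showed the same direction, at 197 and 175 against 361 and 359 CPM for Zap70, 423 and 389 against 659 and 653 for Fyn and 195 and 186 against 585 and 651 for Cd28. Cd4 measured 827 and 792 against 1076 and 1148 CPM (-0.46 ± 0.10, adjusted p = 0.0055), a call lost without monoclonal Treg B, with the 4 Treg libraries alone, without the mean-variance trend and under CD3 scaling. Under CD3 scaling, 6 genes of the list fell.

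Co-inhibitory and anergy genes fell more often than they rose, 14 against 4 of 22 tested, with a median log2 fold change of -0.57. Lag3, an inhibitory receptor for class II molecules, measured 12.6 and 2.82 CPM in monoclonal and 29.1 and 43.7 CPM in polyclonal Treg libraries, Btla, a partner of HVEM, 87.7 and 62.9 against 226 and 174 CPM, and Cd96, a receptor of the TIGIT family, 109 and 112 against 251 and 300.3 CPM. Tox2, a factor linked to chronic stimulation, measured 6.90 and 8.70 against 20.5 and 25.4 CPM. The monoclonal values were the lower ones in each. Tigit, of the identity list, was not called at 90.2 and 89.7 against 71.8 and 102 CPM. The anergy-related enzymes Cblb, Dgka and Dgkz fell, although Dgka lost its call without either monoclonal Treg library. The 4 genes that rose were Havcr2, Cd244, Rnf128 and Ndrg1. Rnf128 (GRAIL), an anergy ubiquitin ligase, measured 10.2 and 11.9 against 0.0710 and 1.67 CPM and 1.72 and 1.03 CPM in monoclonal non-Treg libraries. Cd244, which NK and myeloid cells also express, measured 36.6 and 29.7 against 6.54 and 4.97 CPM, but 106 and 112 CPM in monoclonal non-Treg libraries, where the summed NK cell and innate lymphoid markers were higher as well (800.2 and 869 CPM), and their part was not tested. Under CD3 scaling 9 of the list fell, and without genes called higher in monoclonal non-Treg cells 2 of the 19 left rose.

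IL-2 and STAT5 response genes went both ways, 5 up and 5 down of 17 tested. Pim1, a survival kinase induced by cytokines, measured 1528 and 1565 CPM in monoclonal and 270.0 and 354 CPM in polyclonal Treg libraries, a log2 fold change of 2.32 ± 0.16 (adjusted p = 9.6e-08). Cish and Socs2, feedback inhibitors of cytokine signals, measured 505 and 443 against 219 and 275 CPM and 111 and 87.8 against 35.9 and 42.3 CPM, and the Socs2 call was lost without monoclonal Treg A. Nfkbiz, an atypical NF-kB regulator, measured 379 and 379 against 223 and 191 CPM. All 4 were higher in both monoclonal libraries, whereas the receptor chains Il2ra and Il2rb were the lower ones there. Among the genes that fell, Lta, the cytokine lymphotoxin alpha, measured 14.7 and 26.3 against 107 and 125 CPM and Myb, a transcription factor of effector Treg differentiation, 13.1 and 5.03 against 89.9 and 83.2 CPM. Stat5a, which carries the IL-2 signal to the nucleus, measured 118 and 114 against 162 and 196 CPM, and its relative Stat5b was not called. Of this list, 3 genes rose without monoclonal Treg A and 8 without polyclonal Treg B, 2 rose without genes called higher in monoclonal non-Treg cells, and 2 fell under CD3 scaling, where Stat5a was not called.

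Most of the 20 NF-kB pathway genes tested were not called (4 rose, 3 fell), shares not far above the background of 12.1% in each direction. The feedback inhibitor genes Tnfaip3 and Nfkbia were among those that rose, and Rel, the gene of the subunit c-Rel, among those that fell. Tnfaip3, which encodes A20, a ubiquitin-editing enzyme that ends NF-kB signals, measured 1535 and 1662 CPM in monoclonal and 255 and 239.6 CPM in polyclonal Treg libraries, with a log2 fold change of 2.69 ± 0.15 (adjusted p = 2.4e-08). Nfkbia, the inhibitor IkB-alpha, measured 735 and 727 against 229.7 and 292 CPM. Both were also higher than in the monoclonal non-Treg libraries, at 415 and 390.1 and 269 and 212 CPM. Icam1, an adhesion ligand, measured 157 and 195 against 92.7 and 118 CPM, a call lost under CD3 scaling. Rel, which supports Foxp3 induction, measured 30.6 and 37.4 against 78.9 and 67.6 CPM, and Cd83, a surface marker of activated Treg and dendritic cells, 29.7 and 24.8 against 120.3 and 176 CPM. Cd83 fell in Treg cells while in non-Treg libraries it measured 82.6 and 75.6 in monoclonal and 14.4 and 18.9 CPM in polyclonal mice, and the 2 differences parted by -4.57 ± 0.30 on the log2 scale (adjusted p = 1.8e-06). The subunit genes Rela, Nfkb1, Nfkb2 and Relb were not called, but Nfkb1 was called lower without polyclonal Treg A (-0.36, limma adjusted p = 0.0228) and Relb higher without polyclonal Treg B (0.70, adjusted p = 0.00346). Without genes called higher in monoclonal non-Treg cells, 6 of the list were left and none was called, and under CD3 scaling 2 rose.

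Some proliferation genes were lower in monoclonal Treg cells. Of 27 cell cycle genes tested, none rose, 12 fell and 15 were not called, with a median log2 fold change of -0.83. In none of the 27 was the difference between mice called different in Treg and non-Treg cells. Mki67, the proliferation antigen Ki-67, measured 101 and 109 CPM in monoclonal and 297 and 230.0 CPM in polyclonal Treg libraries, Top2a, a topoisomerase of dividing cells, 48.7 and 80.1 against 167 and 154 CPM, and Rrm2, a subunit of ribonucleotide reductase, 21.9 and 14.5 against 38.01 and 51.8 CPM. The monoclonal Treg level of Mki67 was near that of monoclonal non-Treg cells (92.8 and 103 CPM). The replication helicase genes Mcm2, Mcm3, Mcm5, Mcm6 and Mcm7 fell as well, with log2 fold changes such as -0.83 ± 0.21 for Mcm2 and -0.64 ± 0.15 for Mcm6. Without monoclonal Treg B, Mcm2, Mcm3 and Mcm6 lost their calls, Mcm7 lost its call without monoclonal Treg A, and without the mean-variance trend 6 of the list fell.

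The survival list split 5 up and 4 down of 20 tested. Pmaip1, the death promoter NOXA, measured 203 and 216 CPM in monoclonal and 58.5 and 36.1 CPM in polyclonal Treg libraries and 355 and 379 CPM in monoclonal non-Treg libraries. Fas, the death receptor, measured 19.5 and 26.3 against 52.2 and 56.7 CPM, the monoclonal libraries being lower. Bcl2, described above, fell furthest in the list. Mcl1, another survival protein, was not called at 899 and 934 against 869 and 884 CPM. Without polyclonal Treg A or either monoclonal Treg library 3 of the list rose, and without genes called higher in monoclonal non-Treg cells 1 rose.

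In the list of transcription factors and cytokines of helper lineages, none of 15 genes tested rose and 6 fell, or 3 without the mean-variance trend. Gata3, a helper lineage factor described above with the effector genes, was not in this list, and it rose. The counts therefore hold for the listed genes only. Bcl6, the transcription factor of follicular helper cells, measured 32.3 and 26.99 CPM in monoclonal and 58.9 and 70.8 CPM in polyclonal Treg libraries, a log2 fold change of -1.10 ± 0.18 (adjusted p = 0.00043), and both monoclonal values were lower. Tnf, an inflammatory cytokine, measured 34.5 and 15.2 against 47.4 and 59.1 CPM, a call lost without monoclonal Treg B. Il2, Il17a, Il13, Il5 and 3 other cytokine genes did not reach the level filter.

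Most interferon-stimulated genes were not called: of 30 tested, 8 rose and 1 fell. Gbp3, a guanylate-binding protein, measured 409 and 301 CPM in monoclonal and 151 and 141 CPM in polyclonal Treg libraries and Oas2, an antiviral synthetase, 31.5 and 32.02 against 9.24 and 11.1 CPM. Oas2 was higher still in monoclonal non-Treg libraries, at 129 and 156 CPM, and Gbp3 was lower there, at 88.4 and 69.2 CPM. Without polyclonal Treg A, either monoclonal Treg library or the mean-variance trend 5 rose, and without genes called higher in monoclonal non-Treg cells 2. Without monoclonal Treg A or polyclonal Treg B 2 fell. Of 19 genes of glycolysis and glucose uptake 1 rose and 3 fell, shares near or below the background, and Slc2a3, the 1 that rose, lost its call under 8 of the alternatives. Of that list 1 fell without monoclonal Treg B, under CD3 scaling, with the 4 Treg libraries alone and without the mean-variance trend, and 2 rose without polyclonal Treg B. Of 16 heat shock and stress genes 1 rose and 3 fell, but 1 fell without monoclonal Treg A, without polyclonal Treg B, under CD3 scaling, with the 4 Treg libraries alone, without a filter on low values and without the mean-variance trend, and none rose without polyclonal Treg A, without either monoclonal Treg library or under the last 4 of these.

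The largest falls outside these lists were in genes that polyclonal Treg cells held above polyclonal non-Treg cells. Slc7a10, a transporter of small neutral amino acids, had 0 reads in both monoclonal Treg libraries and measured 41.1 and 63.99 CPM in polyclonal Treg and 8.42 and 6.45 CPM in polyclonal non-Treg libraries, so it was at least 287-fold higher in polyclonal Treg, counting a floor of 3 reads per library. Gucy1a3, a subunit of the nitric oxide receptor guanylate cyclase, was at 0 reads in both monoclonal libraries against 31.5 and 25.9 CPM, at least 157-fold higher in polyclonal Treg. Dnah7a, a dynein heavy chain, was also at 0 against 23.2 and 18.9 CPM, at least 115-fold. All 3 were thus present in both polyclonal libraries and without a read in the monoclonal ones. Ryr2, a calcium release channel, measured 2.56 and 6.44 against 131 and 109 CPM, Npas4, an activity-dependent transcription factor best known in neurons, 1.05 and 1.52 against 85.2 and 63.8 CPM, and Hivep3, a zinc finger factor, 3.48 and 4.52 against 107 and 104 CPM. Ryr2, Dnah7a and Hivep3 have transcripts in the longest group, whose median difference was -0.23, and all 3 kept their call with the length trend removed. The netrin genes Ntn4 and Ntn1, the iron reductase gene Cybrd1 and Hdgfrp3 followed, and Cybrd1 was not called by DESeq2. Slc7a10 lies at chromosome 7, positions 35971404 to 35986130 of mm9 and Gucy1a3 at chromosome 3, positions 81896349 to 81949799 of mm9.

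Rises were also ranked only among genes that both monoclonal Treg libraries held above both monoclonal non-Treg libraries. None of these genes was among the 15 largest rises named without that condition. Ltb4r1, the high-affinity receptor for the chemoattractant leukotriene B4, measured 124 and 131 CPM in monoclonal and 1.99 and 2.18 CPM in polyclonal Treg libraries, with 24.9 and 19.3 CPM in monoclonal non-Treg libraries. Its log2 fold change was 5.38 ± 0.37 (adjusted p = 1.3e-07). Neutrophils express Ltb4r1 too, their summed markers were 1678 and 310 CPM in the same monoclonal Treg libraries, and their part in the Ltb4r1 values was not tested. Erbb2, a growth factor receptor, measured 31.9 and 36.4 against 1.42 and 1.17 CPM, Cdkn1c, an inhibitor of cell cycle kinases, 31.5 and 34.3 against 0.710 and 2.13 CPM, and Nhsl2 74.9 and 103 against 7.18 and 5.53 CPM. In these the monoclonal Treg libraries were the highest of all 8, which the ranking required except against the polyclonal non-Treg libraries. Anks6 and Epb4.1l4a completed the group, and Epb4.1l4a was not called by DESeq2.

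The largest rises named without that condition included genes of antigen-presenting cells and neutrophils. H2-Aa, which encodes a class II chain, measured 1441 and 1037 CPM in monoclonal and 5.75 and 9.33 CPM in polyclonal Treg libraries, a log2 fold change of 7.19 ± 0.19 (adjusted p = 1.5e-11), and 4219 and 4515 CPM in monoclonal non-Treg libraries. Cd74, the class II invariant chain, measured 2676 and 2023 against 47.9 and 52.8 CPM and Itgax (CD11c) 245 and 241 against 8.45 and 2.13 CPM, with 7342 and 8497 and 961 and 1234 CPM in monoclonal non-Treg libraries. Of 31 dendritic cell markers tested 27 rose, and of 16 neutrophil markers 11 rose, none falling in either list. Fewer neutrophil markers rose without polyclonal Treg A or without B. Leaving out genes called higher in monoclonal non-Treg cells removed most dendritic cell and neutrophil markers. Of the markers left, 1 of 6 neutrophil, 0 of 2 dendritic cell, 6 of 11 NK cell and 3 of 12 macrophage markers were called higher. The neutrophil genes were uneven within the group: S100a9 measured 497 and 77.9 and Ngp 352 and 56.02 CPM in monoclonal Treg A and B, and the call of S100a9 was lost without either polyclonal Treg library. Of 18 NK cell and innate lymphoid markers 12 rose and 2 fell, and of 24 macrophage and monocyte markers 13 rose and 1 fell. The NK cell markers that fell were 1 without monoclonal Treg A or polyclonal Treg A, and the macrophage markers 2 without monoclonal Treg B and none without polyclonal Treg B.

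Igj, the joining chain of secreted antibodies, was lower in monoclonal Treg libraries. It measured 0.394 and 0.0565 CPM in monoclonal and 130.4 and 62.5 CPM in polyclonal Treg libraries, a log2 fold change of -6.23 ± 0.38 (adjusted p = 3.9e-08), and 0.333 and 0.580 against 75.6 and 60.9 CPM in non-Treg libraries. Both monoclonal Treg values were near 0. The 9 plasma cell markers summed to 311 and 273 CPM in monoclonal and 452 and 372 CPM in polyclonal Treg libraries, and to 265 and 265 against 266 and 272 CPM in non-Treg libraries. Of 8 tested 5 fell and 1, Prdm1, rose. Those that fell were 3 without polyclonal Treg B, where 2 rose, and 3 with DESeq2, under CD3 scaling, with the 4 Treg libraries alone, without the mean-variance trend and without genes called higher in monoclonal non-Treg cells. Of 16 genes of receptor recombination and thymic development 5 rose and 4 fell, and 3 rose with edgeR, under CD3 scaling, with the 4 Treg libraries alone or without genes called higher in monoclonal non-Treg cells. Rag1, a subunit of the recombinase, was low and higher in the monoclonal libraries, at 7.10 and 7.002 against 0 and 1.17 CPM, a call not made by edgeR. The labels do not name the disrupted Rag gene, so Rag1 checks no label.

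Whether the difference between mice was the same in Treg and non-Treg cells was tested as the difference of the 2 differences. It was called for 1185 of 12881 genes (9.2%), 469 above 0 (3.64%) and 716 below 0 (5.56%). Of the 1563 genes lower in monoclonal Treg, 291 were called in this test, and of the 1553 higher genes 469 in either direction, a total that equals the count above 0 by coincidence. The positive side held Il7r (3.47 ± 0.17), Il9r (3.46 ± 0.25), Ccr2 (2.57 ± 0.22), Lgals3 (2.46 ± 0.37), Cxcr4 (2.04 ± 0.35) and Gata3 (1.58 ± 0.19), all higher in monoclonal Treg cells, with a smaller, an opposite or no called difference in non-Treg cells. On the negative side, Gpr83 (-4.35 ± 0.47), Ryr2 (-3.90 ± 0.46), Bach2 (-2.71 ± 0.31), Bcl2 (-2.40 ± 0.21) and Satb1 (-1.85 ± 0.21) fell in Treg cells and were not called in non-Treg cells. Il1rl1 (0.87 ± 0.32, adjusted p = 0.11), Klrg1 (-0.22 ± 0.39, adjusted p = 0.79) and Pparg (1.62 ± 0.52, adjusted p = 0.07) were not called, and Lrig1 was not called either (-0.41 ± 0.43, adjusted p = 0.62). Foxp3 stood at -1.89 ± 0.17 (adjusted p = 2.4e-05), as its level in non-Treg libraries differed between the mice. CD3 scaling lowered the median of this difference over all genes from -0.03 to -0.53. With it 80 genes lay above 0 and 1203 below, so 6.24% of calls in place of 39.6% were positive, and directions here are relative to that shift. Without monoclonal non-Treg B 395 genes were called, without A 621, without polyclonal non-Treg A 550 and without B 495, and without polyclonal Treg B 772 lay above 0.

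**Figure D5:**
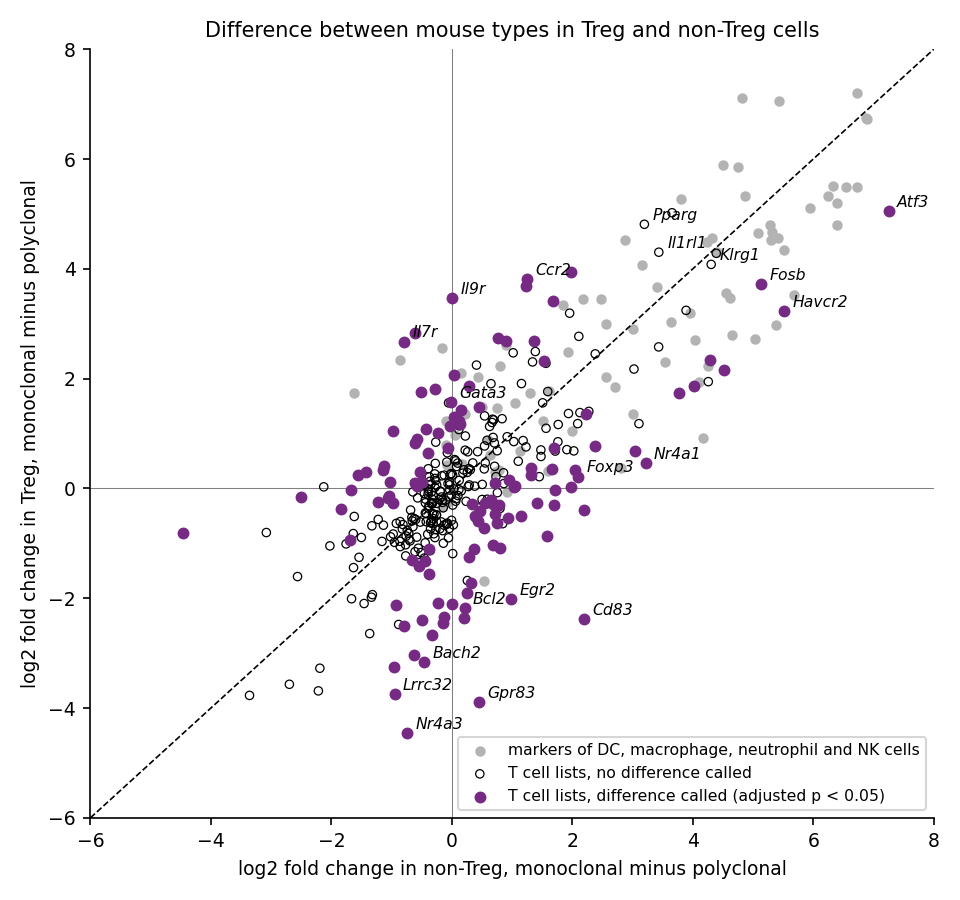
Log2 fold change of monoclonal minus polyclonal mice in Treg (y axis) and in non-Treg cells (x axis) for members of the T cell lists and, in grey, of 4 marker lists, with a dashed line where both are equal. Il7r and Il9r lie high above the line near 0 on the x axis, Gpr83, Nr4a3 and Bach2 lie below it, and Pparg, Il1rl1 and Klrg1 have both differences above 0.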

How the data were processed

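Poly-A RNA of 8 libraries (2 in each of 4 groups) was sequenced with strand kept as single-end 50 bp reads, per the labels' protocols. Tools named in the submitters' processing notes, with no role or order, are STAR 2.4.1a, HOMER 4.7, Trimmomatic 0.33, edgeR, CASAVA 1.8.2 and FastQC 0.10.1, and the build is mm9. The deposited table gives CPM for 24016 genes, normalized by the authors so that each library sums to 1000000. Every value was a whole multiple of 1 read within 0.01 read, so reads were recovered (100% of values whole). A floor of 3 reads is 0.152 to 0.213 CPM and covers counting error only. As a mean over genes with 10 or more reads, in which genes with many reads count most, replicate variance exceeded counting variance 27.1 times in monoclonal and 42.3 times in polyclonal Treg libraries. Other measures ranked the pairs the other way. The replicate correlation on the log2 scale was 0.964 in monoclonal and 0.978 in polyclonal Treg, and 11.2% and 6.35% of genes tested lay at least 2-fold apart.

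The 12881 genes that reached 1 CPM in 2 or more libraries were tested on log2(CPM + 1) with limma 3.58.1 (R 4.3.3, mean-variance trend, robust), with means of the 4 groups (4 residual degrees of freedom, median prior 10) and Benjamini-Hochberg adjustment at 0.05. Fold changes are on the log2(CPM + 1) scale, given ± SE, and understate changes of low genes. "Rose" and "fell" mean called higher and lower in monoclonal Treg. Adjusted p-values cover all genes tested. On whole reads edgeR 4.0.16 called 2639 genes and DESeq2 1.42.0 called 3175. The fits were tested on simulated data, where the share of false calls was slightly above nominal with limma and edgeR and further above it with DESeq2. The simulated libraries were independent, with the same dispersion for all genes, few changed genes and no length trend. They therefore do not give the share of false calls in these data. Other alternatives changed the pseudocount, filter, scaling, samples, replicate block and mean-variance trend.

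The members and gene lists were chosen with earlier results of these data known. Genes named are the largest called changes with groups that did not overlap (among all genes, beside the non-Treg libraries, and up to 4 in each direction in each list) and a fixed set that includes Foxp3, Il2ra, Nr4a1 and Rn45s. Other genes named, and those listed by name alone, were chosen after their values were seen. Coordinates of genes are on mm9, as the deposited table gives them. Promoter sequences are from RefSeq on GRCm38.p6. Some genes of the lists are not reported here by name and stay in the counts.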

Additional observations from a re-analysis of the deposited data

Results flagged for a closer look

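Of 170 genes named above and tested, 85 differed between Treg and non-Treg cells in how monoclonal and polyclonal mice compared, 35 above and 50 below 0. These genes were named partly for large changes and by comparison with the non-Treg libraries, so their number is no result. They stand out because this difference of differences passed an adjusted p of 0.05 in limma. Each value is the log2 difference of monoclonal minus polyclonal in Treg cells, less the same in non-Treg cells. Groups of 2 libraries were too small to look for single libraries that stood apart by gene. Summed markers of dendritic cells, macrophages and monocytes, NK cells and innate lymphoid cells, B cells, CD8 T cells and stroma were higher in both monoclonal non-Treg than in both monoclonal Treg libraries. Those of neutrophils (597 and 128 against 1678 and 310 CPM), plasma cells (265 and 265 against 311 and 273) and erythroid cells (98.5 and 147 against 121 and 258) were not, and the part of any of them in these values was not tested.

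Within the Treg identity list, values below 0 were -1.25 for Il2ra, -1.89 for Foxp3, -2.03 for Ikzf4, -2.80 for Lrrc32 and -4.35 for Gpr83. Among effector and tissue Treg genes, values above 0 were 3.46 for Il9r, 2.35 for Maf, 2.10 for Rora, 1.97 for Gzmb and 1.96 for Ccr3. Among effector and tissue Treg genes, values above 0 were 1.71 for Cxcr3, 1.58 for Gata3 and 1.03 for Prdm1. Within effector and tissue Treg genes, values below 0 were -1.37 for Irf4, -1.73 for Ahr and -2.29 for Havcr2. Among naive and recirculation genes, values above 0 were 3.47 for Il7r, 1.24 for Klf2, 1.03 for S1pr1 and 0.80 for Itgb7. Within naive and recirculation genes, values below 0 were -0.87 for Foxp1, -1.54 for Actn1, -1.85 for Satb1, -1.90 for Tcf7 and -2.29 for Ccr7. Within naive and recirculation genes, values below 0 were -2.40 for Bcl2 and -2.71 for Bach2. Among memory and migration genes, values above 0 were 2.46 for Lgals3, 2.27 for Il18rap, 1.79 for S100a6, 1.75 for Anxa1 and 1.59 for Crip1. Among memory and migration genes, values above 0 were 1.52 for Itga4, 1.28 for Lgals1 and 1.16 for Vim. Among chemokine receptors, values above 0 were 2.57 for Ccr2, 2.04 for Cxcr4 and 2.03 for Ccr4. Within chemokine receptors, Ccr6 stood below 0 at -1.72. Among early response genes, Cd69 stood above 0 at 1.48. Within early response genes, values below 0 were -0.87 for Dusp1, -1.03 for Dusp6, -1.18 for Myc, -1.41 for Fosb and -2.16 for Egr1. Within early response genes, values below 0 were -2.20 for Atf3, -2.56 for Egr3, -2.75 for Nr4a1, -3.00 for Egr2 and -3.72 for Nr4a3.

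Among receptor complex and proximal signalling genes, values above 0 were 0.82 for Cd3g, 0.75 for Cd28 and 0.62 for Cd3e. Among co-inhibitory and anergy genes, Rnf128 stood above 0 at 3.44. Within co-inhibitory and anergy genes, values below 0 were -0.65 for Cd96, -0.87 for Btla, -1.94 for Cd244 and -2.22 for Lag3. Among IL-2 and STAT5 response genes, Pim1 stood above 0 at 0.79. Within IL-2 and STAT5 response genes, values below 0 were -1.70 for Lta and -2.28 for Myb. Among NF-kB pathway genes, values above 0 were 1.32 for Tnfaip3 and 1.05 for Nfkbia. Within NF-kB pathway genes, values below 0 were -0.80 for Nfkb1, -0.96 for Icam1, -1.01 for Nfkb2, -1.71 for Relb and -1.88 for Rel. Within NF-kB pathway genes, Cd83 stood below 0 at -4.57. Within helper lineage genes, Bcl6 stood below 0 at -1.47. Within glycolysis genes, Slc2a3 stood below 0 at -0.95. Within survival genes, Pmaip1 stood below 0 at -2.35. Among the other genes named, values above 0 were 2.33 for Cdkn1c, 2.18 for Ltb4r1, 1.99 for Nhsl2 and 0.56 for Rn45s. Within the other genes named, values below 0 were -0.82 for Cd74, -1.89 for Npas4, -2.97 for Ntn4, -3.04 for Hivep3 and -3.90 for Ryr2. Within the other genes named, Cybrd1 stood below 0 at -5.91. Fitted with a pseudocount of 1 CPM and without a read in monoclonal Treg cells, so not bounds, were -2.89 for Dnah7a, -4.72 for Gucy1a3 and -2.77 for Slc7a10.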

How the results depend on the processing

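With 2 libraries a group, leaving out 1 leaves a lone library assumed to vary like the others. Genes that differed between monoclonal and polyclonal Treg numbered 2416 to 3577 with 1 Treg library left out, against 3116. CD3 scaling gave 1796 (1000.0 higher, 796 lower), the 4 Treg libraries alone 1841 (1016 higher, 825 lower), and leaving out genes called higher in non-Treg cells of monoclonal mice 2074 (688 higher). With the length trend removed 3238 were called, of which 2740 were called without the correction. The length and non-Treg alternatives were added after seeing the data.

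For the difference between Treg and non-Treg, no filter on low values gave 756 calls (289 above 0, 467 below), no mean-variance trend 685 (192 above 0), and CD3 scaling 80.0 above 0 and 1203 below. With 1 library left out the calls ranged from 395 (of which 257 below 0, without monoclonal non-Treg B) to 1663 (of which 772 above 0, without polyclonal Treg B), and those below 0 from 257 to 927. Apart from fewer samples or genes, the cause of these shifts was not tested.

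Libraries with the same replicate letter showed no strong shared deviation (correlations of deviations -0.093 to 0.097), and what the letters mark is not said. A replicate block gave 2969 calls, and 1094 for the difference between Treg and non-Treg. Of the genes followed, Nr4a1 gained a call with it, and Slc2a3, Bax and Runx3 lost theirs.

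Of 232 genes followed, most of them chosen for large called changes or after their values were seen, 204 were called. Over all genes tested 24.2% were called, and CD3 scaling kept 1795 of the 3116 calls. Of the 204, 145 kept their call under every alternative in which they were tested. 42 lost it when 1 Treg library was left out. No followed gene changed direction while called. Levels under 0.213 CPM cannot be told from 0 at this depth.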
